A study of Homo sapiens with 20 samples.

Results

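The genes described here are 35 human genes of ribosome production and cell growth that are known to respond to MYC, out of 36601 genes in the deposited table. They were taken by name: nucleolar proteins, subunits of the small nucleolar ribonucleoproteins, RNA polymerase I factors, assembly factors of both ribosomal subunits, and 2 enzymes of polyamine and pyrimidine synthesis. The study treated MDA-MB-231 cells, an established line from a triple-negative human breast cancer, with biomimetic nanoparticles that heat up under near-infrared light, and its title names the regulation of c-MYC by controlled photothermal therapy. There were 20 samples in 5 groups of 4. In 3 groups the cells took up nanoparticles for 4 h at 0.1 mg/ml and then stood under an 808 nm laser for 10 min, with the temperature held at 46, 50 or 54 °C. One further group received the nanoparticles and no laser, and the last received neither. All cells had been seeded at 30000 per well and grown for 24 h at 37 °C, and each RNA sample pooled 2 wells. The labels number the replicates but do not say whether they came from separate cultures, so the tests measure the spread between these samples. Laser light on cells without nanoparticles was not analysed here, and an effect of the light itself cannot be told apart from one of heat. The time between the laser and lysis is not given in the sources used here.

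MYC binds DNA as a pair with MAX at the E-box, the letters CACGTG, and raises transcription of many growth genes. Much of this programme serves the nucleolus, where RNA polymerase I makes the ribosomal RNA precursor and small nucleolar RNAs direct its cleavage and modification, and where assembly factors build the small and the large subunit around it. Heat stress of mammalian cells is known to slow ribosomal RNA synthesis and processing. The mRNAs of these factors, measured here, are a separate quantity from the rate of either step.

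The E-box could be looked for in 29 of the 35 promoters, those for which RefSeq sequence (GRCh38.p14) was at hand, each taken from 250 bases before to 50 bases after the gene's start. The start is that of RefSeq, and for some genes, PES1 among them, GENCODE has another. For 22 of the 29, bases after the RefSeq start were found near the beginning of a GENCODE transcript of the gene. CACGTG reads the same on both strands and stood in 11 of the 29 windows (37.9%), against 7.43% of 27305 promoters of all genes and 10.2% of the 9436 promoters of genes tested here. There were 12 of these E-boxes, 2 of them before NOP10, and 11 lay within 50 bases of the start. The window ended 50 bases after the start, so an E-box on that side could not lie farther off. That count therefore does not show a clustering at the start. The variant CACGCG, read on both strands, was in 31.0% of the members' windows, against 18.8% for tested genes. The inverted heat shock element core GAANNTTC was in 3.45% (GNL2), against 4.66%. A match is a run of letters and not a measured binding site. The stretches below, 5′ to 3′ on the gene's strand with the E-box in capitals, belong to the 5 E-box genes whose levels differed between replicate pairs, to NOP10 with its pair of E-boxes, and to NOP2, which had one of the larger differences between temperatures.
RRP9, chr3:51941892-51941921, minus strand: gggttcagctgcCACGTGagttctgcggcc
MYBBP1A, chr17:4555340-4555369, minus strand: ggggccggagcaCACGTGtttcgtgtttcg
NOP14, chr4:2963374-2963403, minus strand: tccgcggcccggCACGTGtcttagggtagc
WDR43, chr2:28894658-28894687, plus strand: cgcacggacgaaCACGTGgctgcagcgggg
UTP20, chr12:101280083-101280112, plus strand: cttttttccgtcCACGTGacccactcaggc
NOP10 far, chr15:34343289-34343318, minus strand: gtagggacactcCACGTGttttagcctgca
NOP10 near, chr15:34343130-34343159, minus strand: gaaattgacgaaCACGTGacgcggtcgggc
NOP2, chr12:6568242-6568268, minus strand: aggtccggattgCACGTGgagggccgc
The other E-box windows were those of FBL, BYSL, PES1 and GNL2. Of the 10 genes whose values in all 20 libraries are given below, UTP20 has CACGTG in its window and CAD, GAR1, GNL3, LYAR, NCL, NOP16, NOP56, POLR1C and PPAN do not. E-boxes outside the windows, such as in introns, were not looked for, so these genes may carry the site elsewhere.

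Total counts per library ran from 2401180 to 7710977, with the 54 °C libraries the deepest. The libraries held between 23936 and 62890 counts of the 35 genes, 0.683% to 1.034% of all counts, and all 35 were among the 12149 genes that passed the low-count filter. Levels are normalised CPM, counts scaled to a common library size with TMM factors, which compare libraries for 1 gene and not genes with each other. VIM, CD44, AXL, CAV1, ANXA1, LGALS1 and S100A4, markers of this line, were present in every library, and their sum was 4810 to 5960 CPM. ESR1 and PGR, which define hormone-receptor tumours, had 22 and 9 counts over the 20 libraries. Other genes of the same list of 8 luminal and receptor markers were present in all 20. KRT19 was at 51.3 to 155 CPM, GATA3 at 3.8 to 28.1 CPM and ERBB2 at 3.76 to 16.3 CPM. Lymphocyte markers summed to at most 1.69 CPM and blood markers to at most 1.43 CPM in any library. Macrophage markers, CD68 among them, summed to at most 25.9 CPM and fibroblast markers, COL1A1 among them, to at most 9.26 CPM. Cells at 46 °C had 9 of 15 heat shock chaperones called higher than nanoparticle-alone cells, with HSPA1A at 1760 ± 325 CPM against 28.6 ± 7.94 CPM (SD, n = 4 each). HSPA1A was at 21.0 ± 8.90 CPM in 50 °C cells and 23.4 ± 5.23 CPM in 54 °C cells. The sum of 13 mitochondrially encoded mRNAs was 42439 to 53919 CPM at 46 °C and 151720 to 210956 CPM at 50 °C, against 107208 to 125004 CPM with nanoparticles alone. The part of these shifts in the members' values was not tested.

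None of the 35 genes was called in the 7 comparisons between groups by the edgeR fit of all 20 samples. Some ribosome biogenesis genes outside the 35 were called, and are given further below. The summed level of the 35 was 8658 ± 690.3 CPM in untreated cells, 8827 ± 427 CPM with nanoparticles alone, 8848 ± 749.96 CPM at 46 °C, 8127 ± 752 CPM at 50 °C and 8703 ± 702 CPM at 54 °C (SD, n = 4 each). In this sum each group's libraries overlapped with those of every other group. In such bulk samples, fewer cells with a transcript and less of it per cell cannot be told apart. In edgeR's quasi-likelihood test with Benjamini-Hochberg adjustment over 12149 genes, 0 of the 35 members were called higher and 0 lower in any of the 7 comparisons, at an adjusted p under 0.05. DESeq2 called GNL3 higher at 46 °C over nanoparticles alone (adjusted p = 0.0278), GAR1 lower at 50 °C over nanoparticles alone (0.0427) and CAD higher at 50 °C over 46 °C (0.0112), and 0 other members in the 7 comparisons. It called 0.897%, 1.22% and 1.03% of all genes in those 3 directions. Other settings of edgeR called members too. With library totals as the scaling, GNL3 was higher at 46 °C (beside 0.782% of genes) and GAR1 lower at 50 °C (1.87%) over nanoparticles alone, and NCL, NOP58, GAR1, NOP16 and DDX18 were lower at 50 °C over 46 °C (3.08%). NCL and GAR1 were lower at 50 °C over nanoparticles alone, and NCL over 46 °C, without the low-count filter (0.599% and 0.452%) and with only the groups compared in the fit (0.983% and 0.674%).

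The calls over all 12149 genes give the scale for these counts. At 46 °C over nanoparticles alone 0.617% of them were called higher and 0.346% lower, where 0 members were, and 11% had an unadjusted p under 0.05, where 7 members did. Members whose groups did not overlap numbered 1 higher (GNL3) and 4 lower (POLR1C, CAD, LYAR and POLR1B), against 3.69% and 3.28% of all genes. At 50 °C over nanoparticles alone 0.527% of all genes were called higher and 0.691% lower, and 11.4% had an unadjusted p under 0.05, where 5 members did. Members without overlap were 1 higher (GNL3) and 3 lower (GAR1, NOP16 and NOLC1), against 4.2% and 4.13% of all genes. At 54 °C 0.0741% of genes were called higher and 0.0494% lower, and 5.75% had an unadjusted p under 0.05, where 1 member did (GNL3). The libraries of 0 members were higher without overlap and those of 1, WDR43, lower, against 2.19% and 2.09% of genes. Nanoparticles alone over untreated cells gave 0% of genes called in either direction. There 2 members (GNL3 and CAD) and 3.94% of genes had an unadjusted p under 0.05, and CAD and BOP1 were higher and GNL3 lower without overlap, against 1.3% and 1.43% of genes.

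Between temperatures, 0.584% of all genes were called higher and 0.609% lower at 50 °C than at 46 °C, and 0 members were called. An unadjusted p under 0.05 was held by 9 members and 10.6% of genes, and CAD was higher and GAR1 and NCL lower without overlap, against 3.7% and 3.41% of genes. At 54 °C over 50 °C the background was 0.0576% higher and 0.14% lower, 5 members and 6.02% of genes had an unadjusted p under 0.05, and GAR1 and NOLC1 were higher and NOP56 lower without overlap, against 2.48% and 2.65% of genes. At 54 °C over 46 °C the background was 0.239% higher and 0.395% lower, 5 members and 8.56% of genes had an unadjusted p under 0.05, and the libraries of 0 members were higher and of 1, WDR43, lower without overlap, against 2.68% and 3.05% of genes.

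**Figure D1:**
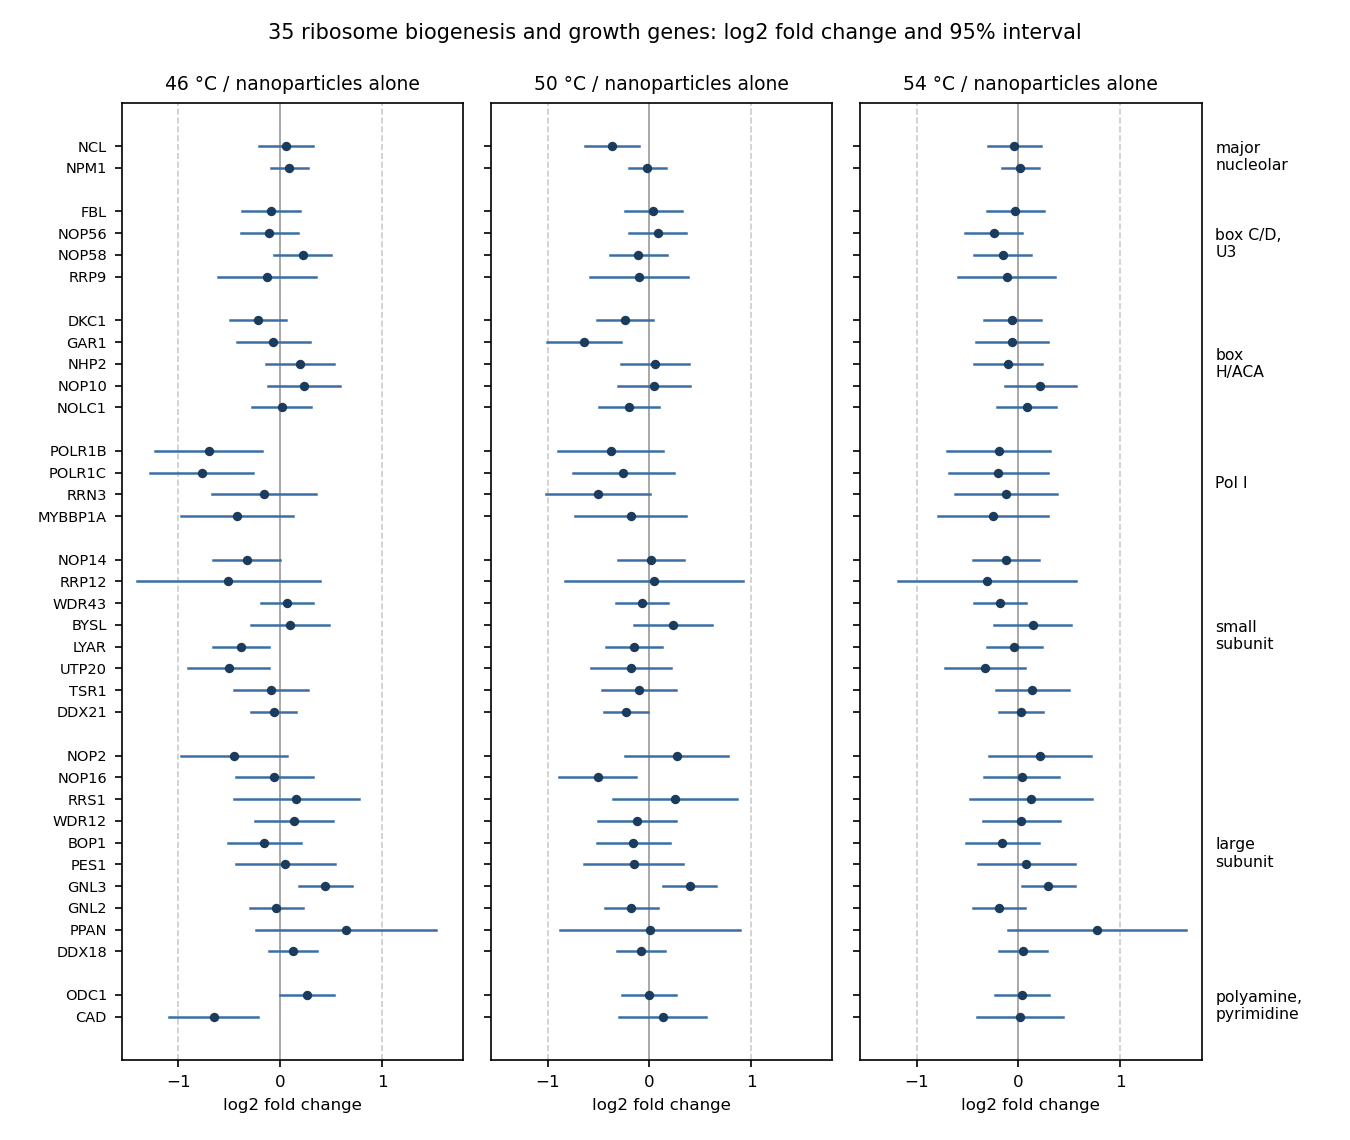
Log2 fold change of each of the 35 genes at 46, 50 and 54 °C over nanoparticles alone (points), with the 95% interval of the edgeR fit (lines), grouped by role and with dashed lines at a doubling and a halving. The points lie between −0.77 and 0.77 on the log2 scale, and the intervals of 30 genes at 46 °C and 33 at 50 and at 54 °C lie inside the dashed lines.

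The width of the intervals says how closely each change was estimated. The intervals are not adjusted for the number of genes tested, as the calls are, so larger changes than their half-widths could go uncalled. POLR1C at 46 °C, at −0.77 ± 0.25 log2 units (SE), had an interval that left out 0 and was not called. The 95% interval lay wholly within 1 log2 unit of 0, that is within a doubling or a halving, for 30 of 35 members at 46 °C and for 33 at 50 and at 54 °C, against nanoparticles alone. It lay within 0.5 log2 units for 15, 15 and 19 of them. The distance from the estimate to either end of the interval had a median of 0.36 over the members at each temperature, from 0.18 for NPM1 to 0.90 at most, for RRP12 at 46 °C. The members' median log2 fold change over nanoparticles alone was −0.06 at 46 °C, −0.10 at 50 °C and −0.04 at 54 °C, beside medians of 0.01, 0.02 and 0.01 over all genes tested. The estimates were below 0 for 20, 23 and 19 of the 35 members, while 49.1%, 48.3% and 48.9% of all genes tested were below 0.

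Among the major nucleolar proteins, NPM1, a histone and ribosome chaperone, had the narrowest interval of the members. Its level kept between 1426 and 1809 CPM in the 20 libraries, and its log2 fold change over nanoparticles alone was 0.09 ± 0.090 at 46 °C, −0.02 ± 0.090 at 50 °C and 0.02 ± 0.090 at 54 °C (SE). NPM1 has 45 numbered pseudogenes in GENCODE, and how the counting split reads among near-identical copies is not given in the sources used here. NCL encodes nucleolin, which binds ribosomal DNA and precursor RNA. It had 834, 857, 1015 and 1065 CPM in 50 °C cells, against 1176, 1033, 1352 and 1298 CPM in nanoparticle-alone cells. At 46 °C NCL had 1069, 1211, 1341 and 1423 CPM. The 50 °C libraries were all below the 46 °C ones and shared 1 stretch of values, around 1033 to 1065 CPM, with the nanoparticle-alone ones. The log2 fold change of NCL was −0.37 ± 0.13 at 50 °C over nanoparticles alone (SE, adjusted p = 0.189) and −0.42 ± 0.13 at 50 °C over 46 °C (adjusted p = 0.118), and neither was called. At 54 °C NCL had 1128, 1007, 1279 and 1311 CPM, and in untreated cells it had 941, 915, 1363 and 1482 CPM. Replicates 1 and 2 were the lower ones in both of these groups.

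Box C/D particles, which guide 2′-O-methylation of RNA, are built on FBL, the methyltransferase fibrillarin, and on the scaffold proteins NOP56 and NOP58, and RRP9 belongs to the related U3 particle. NOP56 had 176.5, 193.5, 203 and 241 CPM at 54 °C, against 241, 234, 238 and 252 CPM with nanoparticles alone, and 251, 247, 269.8 and 253 CPM at 50 °C. It had 165, 209, 279.7 and 242 CPM at 46 °C and 209, 216, 289 and 291 CPM in untreated cells, a wider spread than in the other 3 groups. All 4 of its 54 °C libraries were below all 4 of its 50 °C ones, with a log2 fold change of −0.33 ± 0.14 (SE, adjusted p = 0.669). NOP58 was at 376 CPM in replicate 4 of the 50 °C cells and at 235 to 241 CPM in the other 3. FBL and RRP9 moved by at most 0.13 log2 units at any temperature over nanoparticles alone.

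In box H/ACA particles, which guide pseudouridylation, DKC1 is the pseudouridine synthase and GAR1, NHP2 and NOP10 are its partners, and NOLC1 is a chaperone of both particle types. GAR1 had 49.2, 66.0, 74.8 and 73.5 CPM in 50 °C cells, against 89.4, 93.8, 108 and 121 CPM in nanoparticle-alone cells. At 46 °C GAR1 had 88.1, 93.1, 113 and 99.4 CPM, and at 54 °C it had 87.0, 81.2, 83.4 and 143 CPM. Untreated cells had 85.2, 84.4, 115 and 111.5 CPM of GAR1. Every 50 °C library was therefore below every library of the other 4 groups. The log2 fold change of GAR1 at 50 °C was −0.64 ± 0.18 over nanoparticles alone (SE, adjusted p = 0.0567) and −0.58 ± 0.18 over 46 °C (adjusted p = 0.116), and at 54 °C it was 0.58 ± 0.18 over 50 °C (adjusted p = 0.304). The first of these is the smallest adjusted p of any member against nanoparticles alone, and it missed the threshold. DKC1 was at −0.24 ± 0.14, NHP2 at 0.06 ± 0.17 and NOP10 at 0.04 ± 0.18 at 50 °C over nanoparticles alone (log2, SE), and the difference between these and GAR1 was not tested.

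RNA polymerase I is represented by its subunits POLR1B and POLR1C (POLR1C also serves RNA polymerase III), by the initiation factor RRN3 and by the nucleolar MYB-binding protein MYBBP1A. POLR1C had 32.7, 21.5, 22.3 and 35.2 CPM in 46 °C cells, against 52.2, 40.0, 50.4 and 48.4 CPM in nanoparticle-alone cells. POLR1B had 27.2, 14.02, 42.3 and 41.2 CPM at 46 °C, against 47.1, 45.9, 58.3 and 51.1 CPM with nanoparticles alone. For both subunits these groups did not overlap. POLR1B averaged 38.8 CPM in untreated cells, which lies within the range of its 46 °C libraries. POLR1C had 45.5, 30.8, 39.8 and 51.5 CPM in untreated cells, 28.7, 42.9, 59.4 and 28.6 CPM at 50 °C and 32.4, 38.1, 55.9 and 40.1 CPM at 54 °C, and each of these groups overlapped with the 46 °C one. The log2 fold changes were −0.77 ± 0.25 (adjusted p = 0.153) and −0.70 ± 0.26 (adjusted p = 0.233), the 2 lowest estimates among the members at 46 °C, and neither was called. RRN3 was at −0.16 ± 0.25 and MYBBP1A at −0.43 ± 0.28 at 46 °C (log2, SE). All 4 estimates were below 0 at each of the 3 temperatures, with medians of −0.56 at 46 °C, −0.32 at 50 °C and −0.20 at 54 °C. They were below 0 with RLE size factors and with library totals too. RRN3 turned above 0 in a few alternatives, reaching 0.04 at 46 °C (without 46 °C replicate 2) and 0.06 at 54 °C (without nanoparticle-alone replicate 3).

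The small subunit is assembled on a large early particle, to which NOP14, WDR43 and UTP20 belong, and matured with RRP12, BYSL and TSR1. LYAR is a nucleolar zinc finger protein and DDX21 an RNA helicase. LYAR had 184, 181, 232 and 223 CPM in 46 °C cells, against 258, 265, 253 and 292 CPM in nanoparticle-alone cells. The groups did not overlap, and the log2 fold change was −0.38 ± 0.14 (SE, adjusted p = 0.21). LYAR had 253, 273, 261 and 231 CPM in untreated cells, 199, 205.5, 266.5 and 293 CPM at 50 °C and 231, 226, 316.5 and 264 CPM at 54 °C. All 3 of these groups overlapped with the 46 °C libraries. UTP20 had 66.6, 52.8, 70.1 and 84.1 CPM at 46 °C and 77.8, 77.8, 85.2 and 68.1 CPM at 54 °C, against 79.4, 106, 108 and 95.3 CPM with nanoparticles alone. Untreated cells had 48.0, 51.7, 105 and 101 CPM of UTP20, so the untreated group alone spanned nearly the range of all 20 libraries. At 50 °C UTP20 had 70.7, 78.7, 94.6 and 99.1 CPM. WDR43 was lower in all 4 libraries at 54 °C, 347.5 to 371 CPM, than in those with nanoparticles alone, 377 to 432 CPM, at a log2 fold change of −0.18 ± 0.13 (adjusted p = 0.96). The other 5 small-subunit members lay between −0.51 (RRP12 at 46 °C) and 0.23 (BYSL at 50 °C) on the log2 scale over nanoparticles alone, none called.

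Among the large-subunit factors, GNL3 (nucleostemin, a nucleolar GTPase) set the nanoparticle-alone cells apart. It had 230, 266, 267 and 324 CPM in untreated cells, 199, 218, 212 and 216 CPM with nanoparticles alone, 259.5, 327, 290.7 and 272 CPM at 46 °C, 276, 297, 257 and 282 CPM at 50 °C and 236, 216, 271 and 313 CPM at 54 °C. The nanoparticle-alone libraries lay below every library of the untreated, 46 °C and 50 °C groups, and overlapped with those at 54 °C. Its log2 fold change was 0.44 ± 0.13 at 46 °C (SE, adjusted p = 0.0878), 0.40 ± 0.13 at 50 °C (adjusted p = 0.125) and 0.29 ± 0.13 at 54 °C (adjusted p = 0.79), each over nanoparticles alone, and −0.36 ± 0.13 in nanoparticle-alone over untreated cells (adjusted p = 1). These 4 comparisons share the nanoparticle-alone libraries, so they are not independent of each other.

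NOP16, a nucleolar large-subunit assembly factor, had 68.9, 83.9, 108 and 116 CPM in 50 °C cells, against 127, 117, 133 and 158 CPM in nanoparticle-alone cells. Every 50 °C library was lower, at a log2 fold change of −0.51 ± 0.19 (SE, adjusted p = 0.211). NOP16 had 133, 117, 141 and 146 CPM in untreated cells, 79.8, 107, 166.5 and 160.5 CPM at 46 °C and 117, 105, 156 and 168 CPM at 54 °C. In both heated groups replicates 3 and 4 were well above replicates 1 and 2. PPAN had 14.1, 10.0, 24.7 and 21.3 CPM at 54 °C, against 3.84, 7.44, 19.7 and 10.6 CPM with nanoparticles alone. PPAN had 11.99, 15.9, 11.7 and 10.45 CPM in untreated cells, 16.7, 5.97, 20.8 and 20.9 CPM at 46 °C and 5.52, 13.9, 14.6 and 7.02 CPM at 50 °C. Its groups overlapped, the estimate of 0.77 ± 0.44 had one of the widest intervals, and PPAN overlaps the read-through gene PPAN-P2RY11 on the same strand, so its counts are uncertain. NOP2, a ribosomal RNA methyltransferase, had 44.2, 37.0, 53.1 and 49.4 CPM at 50 °C, against 24.4, 21.2, 27.4 and 38.2 CPM at 46 °C, with 1 pair of overlapping libraries and a log2 fold change of 0.73 ± 0.26 (SE, adjusted p = 0.197). The 3 members of the PeBoW complex, PES1, BOP1 and WDR12, stayed between −0.16 and 0.14 log2 units of nanoparticles alone at all 3 temperatures. GNL2, DDX18 and RRS1 lay between −0.19 and 0.25.

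CAD, which carries the first 3 steps of pyrimidine synthesis, was the 1 member called when all 5 groups were compared at once. Its level was 45.7, 33, 31.5 and 45.3 CPM in untreated cells, 66.1, 61.7, 50.4 and 48.2 CPM with nanoparticles alone, 42.9, 35.5, 29.4 and 35.9 CPM at 46 °C, 52.9, 57.1, 57.6 and 80.8 CPM at 50 °C and 63.0, 61.1, 65.4 and 39.6 CPM at 54 °C. The untreated and 46 °C libraries were the low ones, and all 8 of them were below all 8 of the nanoparticle-alone and 50 °C groups. The F test of any difference among the 5 groups gave F = 5.39 and an adjusted p of 0.046, in a test that called 2.4% of all genes. Without the low-count filter NCL was called as well, again beside 2.4%. The call was lost without any 1 of 14 of the 20 libraries, with an adjusted p up to 0.12 (without 50 °C replicate 4). Library totals as the scaling ended it too (0.115), and GAR1 was called there (0.0204), beside 3.88% of genes. CAD was not called within replicates 1 and 2 (0.156), where NCL, DKC1, LYAR and DDX21 were called beside 4.55% of genes. Nor was CAD called within replicates 3 and 4 (0.327), where 0 members were called beside 1.19%. Between pairs of groups, CAD had a log2 fold change of 0.79 ± 0.22 at 50 °C over 46 °C (adjusted p = 0.0542), 0.67 ± 0.22 at 54 °C over 46 °C (0.204), −0.65 ± 0.22 at 46 °C over nanoparticles alone (0.163) and 0.54 ± 0.22 for nanoparticles alone over untreated cells (1). ODC1, the first enzyme of polyamine synthesis, lay between −0.27 (50 °C over 46 °C) and 0.26 (46 °C over nanoparticles alone) in all 7 comparisons.

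**Figure D2:**
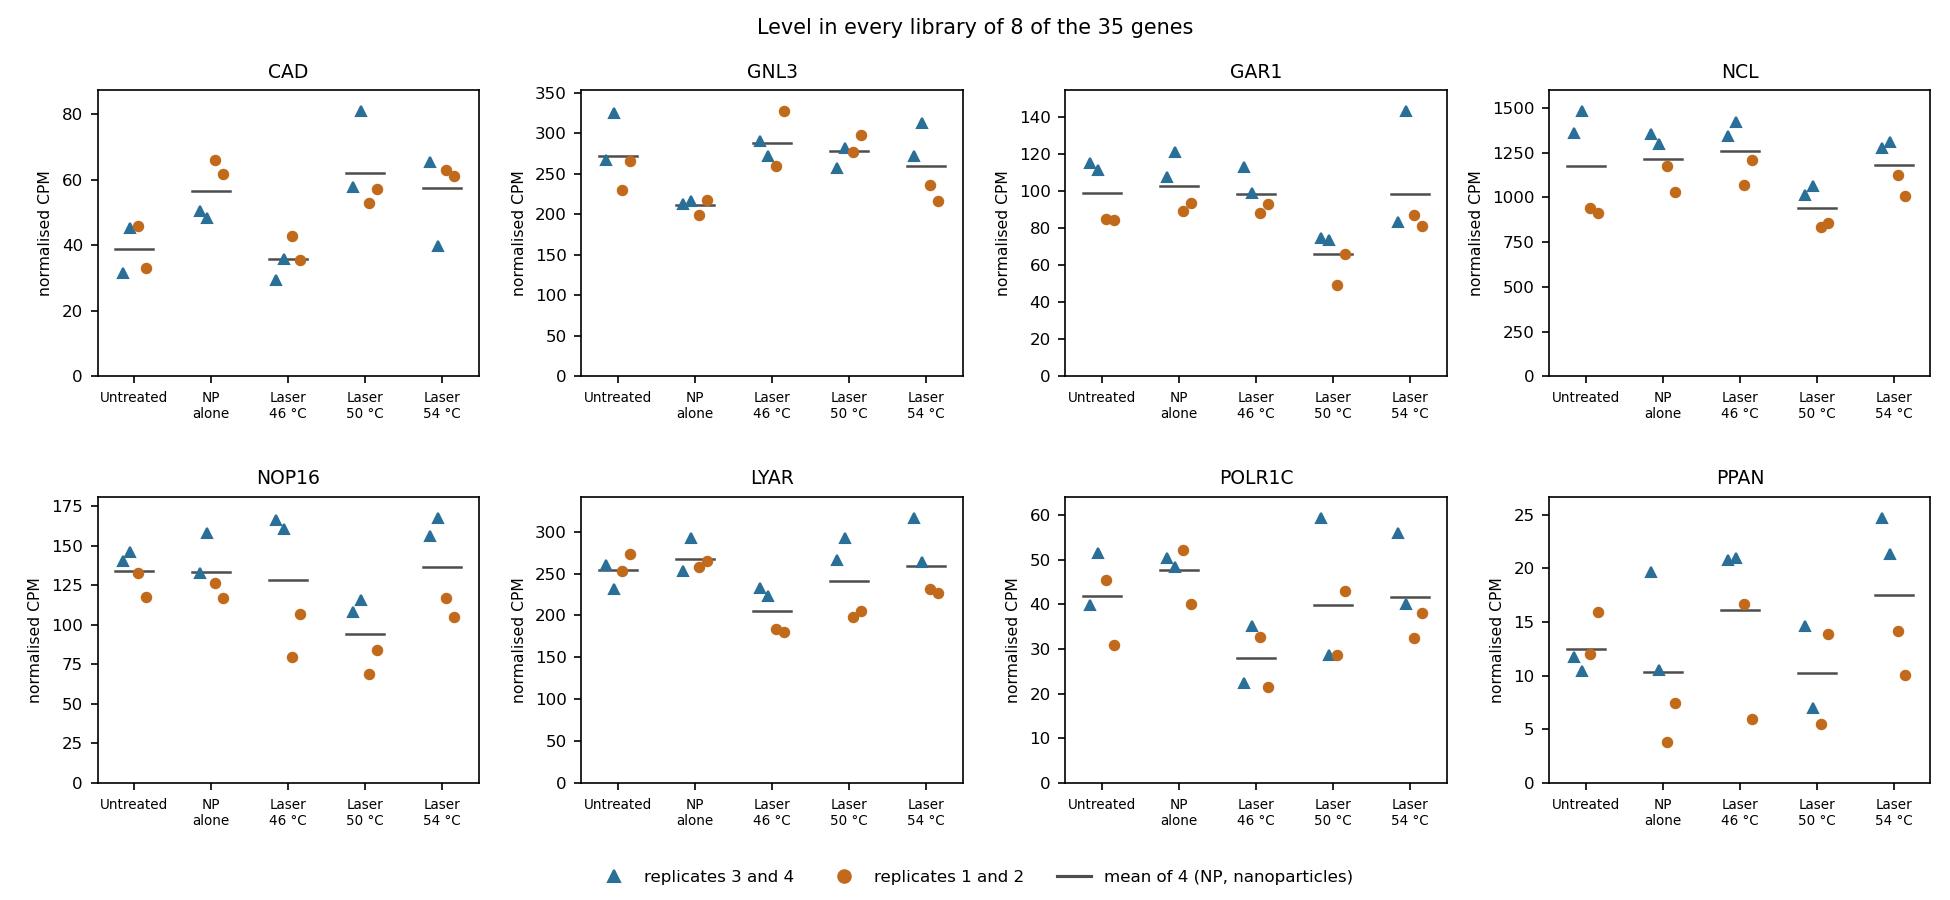
Normalised CPM (vertical axes, from 0) in each of the 20 libraries for CAD, GNL3, GAR1, NCL, NOP16, LYAR, POLR1C and PPAN, by group along the horizontal axes (NP, nanoparticles), with triangles for replicates 3 and 4, circles for replicates 1 and 2 and a bar at the mean of 4. CAD is low in untreated and 46 °C cells, GNL3 is low with nanoparticles alone and GAR1 is low at 50 °C, and in NCL and NOP16 the triangles lie above the circles in each group, while groups of PPAN overlap.

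More members were called between replicate pairs than between groups, but each comparison of 2 groups had only 4 libraries against 4. Fewer genes of any kind were called there, so these counts are not on the same scale. Across the 5 groups, 10 libraries against 10, 17 of 35 were called higher in replicates 3 and 4 than in replicates 1 and 2 and 0 lower, in an edgeR fit of the groups with a term for this division, where 4.17% of all genes were called higher and 4.65% lower. The labels do not say what sets these pairs apart, and the division was chosen after the data had been seen. The estimate was above 0 for 30 of 35 members, with a median of 0.24 log2 units, beside −0.00 over all genes. Their summed level was 8637 to 9729 CPM in replicates 3 and 4, against 7324 to 8562 CPM in replicates 1 and 2, with no overlap in any of the 5 groups.

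Every role group had at least 1 called member. RRP12 had the largest, 0.83 ± 0.16 (log2, SE, adjusted p = 0.000121), with means of 50.0 CPM in replicates 3 and 4 and 28.7 CPM in replicates 1 and 2. For NCL it was 0.35 ± 0.053 (adjusted p = 6.33e-07), with 1293 against 1017 CPM, and for NOP16 0.47 ± 0.089 (6.49e-05), with 145 against 106 CPM. Both were higher in all 5 groups. By role, the called members were 7 of 8 small-subunit factors, BYSL being the exception, 3 of 4 box C/D and U3 proteins, 3 of 5 box H/ACA proteins, 1 of 10 large-subunit factors (NOP16), 1 of 4 polymerase I factors (MYBBP1A), NCL and ODC1. Of these 17, NCL, NOP56, RRP9, DKC1, NOP14, RRP12, TSR1, DDX21 and NOP16 kept their calls without any 1 library, and the highest adjusted p was 0.0496, for RRP9. GAR1 lost its call without 54 °C replicate 4 (0.0644) and NOP58 without 50 °C replicate 4 (0.0558). LYAR lost it without 12 libraries, MYBBP1A without 10, NOLC1 without 7, ODC1 without 6, and UTP20 and WDR43 without 3 each, with an adjusted p of up to 0.137. DESeq2 called 18 members higher and 0 lower, beside 5.06% and 5.17% of all genes.

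**Figure D3:**
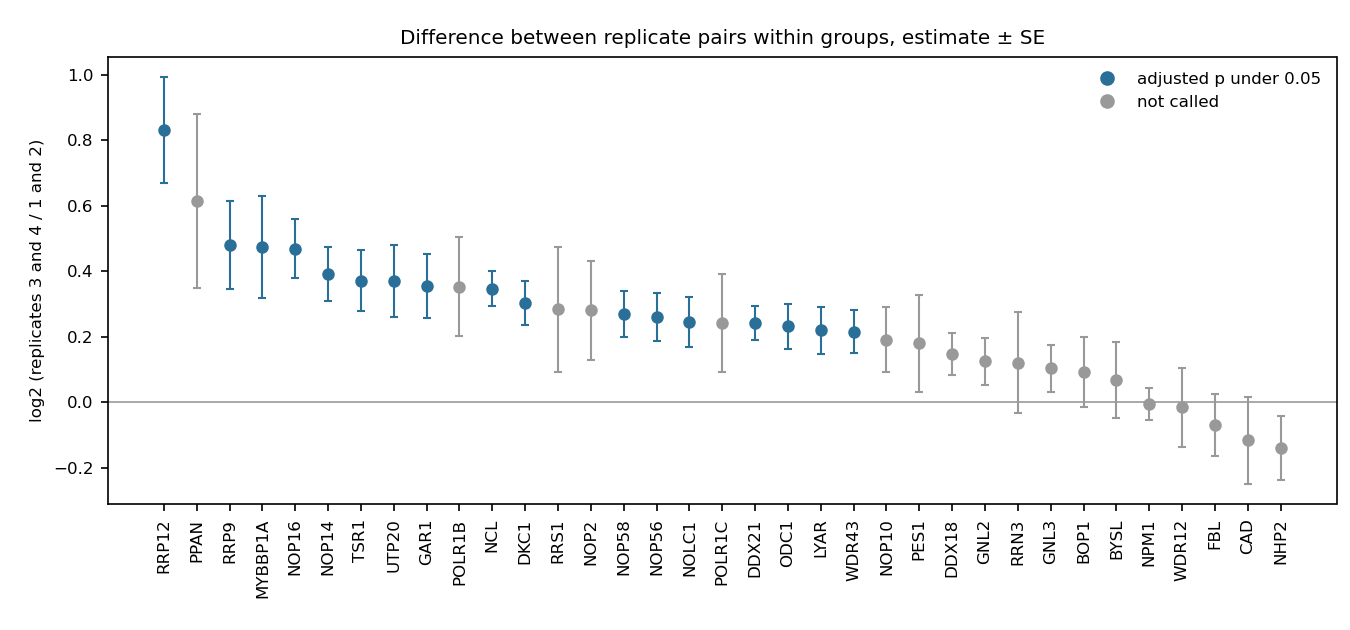
Log2 difference between replicates 3 and 4 and replicates 1 and 2 for each of the 35 genes, estimated within the 5 groups with edgeR, with 1 SE, in order of size, and blue where the adjusted p was under 0.05. RRP12 is the highest at 0.83, NHP2 the lowest at −0.14, and the 17 blue points are all above 0.

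Other quantities also differed between these pairs. Total counts were 2401180 to 6304912 in replicates 3 and 4, against 2944517 to 7710977 in replicates 1 and 2, and lower without overlap in 3 groups. The sum of 8 long noncoding RNAs, MALAT1 and NEAT1 among them, had a median of 4354 CPM in replicates 3 and 4, against 3719 CPM in replicates 1 and 2. It did not overlap between the pairs in 4 of the 5 groups. Ribosomal protein mRNAs had 3 of 79 called higher and 11 lower in replicates 3 and 4, and large-subunit assembly factors outside the 35 had 17 of 50 higher and 1 lower, with a median of 0.24 log2 units. Among small-subunit processome genes 8 of 46 were higher and 0 lower. The sum of mitochondrially encoded mRNAs was higher without overlap in replicates 3 and 4 in 1 group (50 °C), lower without overlap in 2 (nanoparticles alone and untreated), and overlapped in the other 2. The part of these in the members' difference was not tested.

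**Figure D4:**
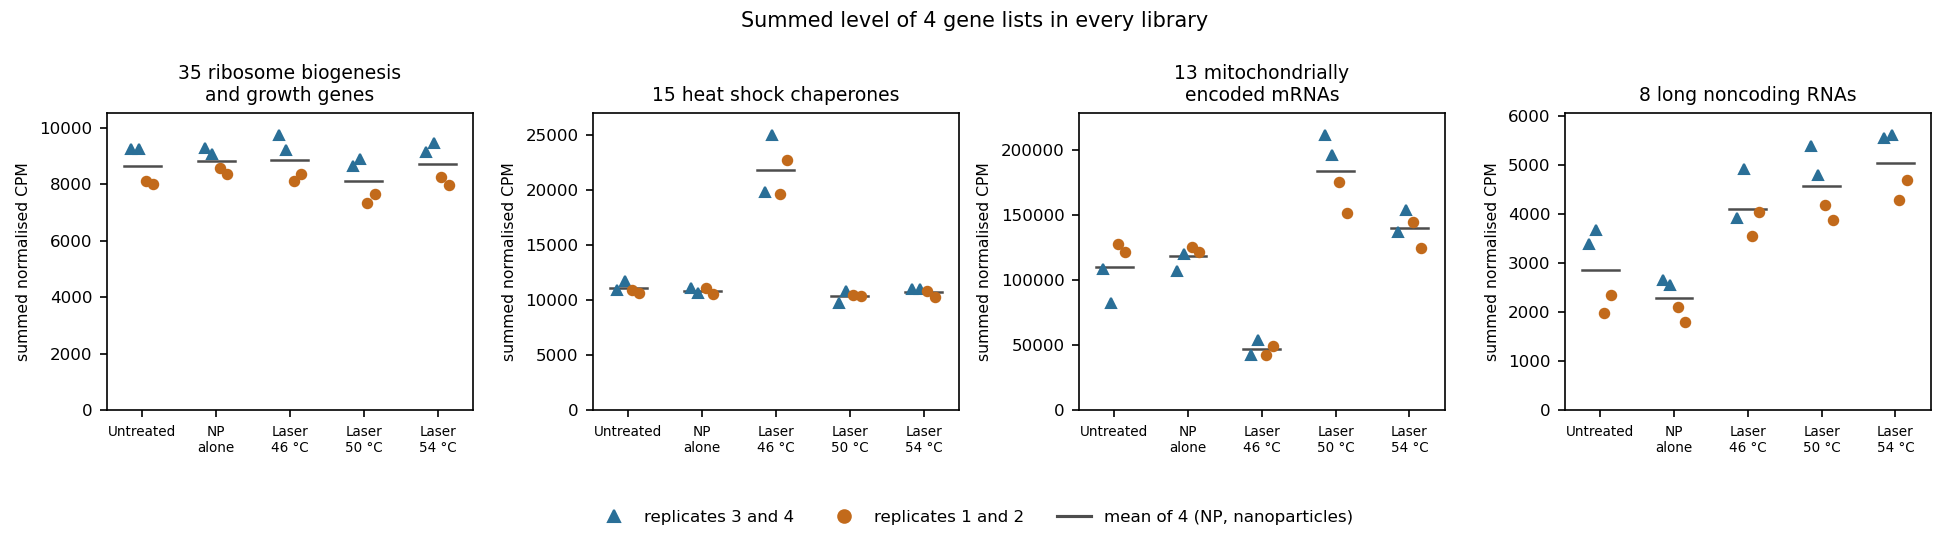
Summed normalised CPM (vertical axes, from 0) in each library for the 35 ribosome biogenesis and growth genes, 15 heat shock chaperones, 13 mitochondrially encoded mRNAs and 8 long noncoding RNAs, by group (NP, nanoparticles), with triangles for replicates 3 and 4, circles for replicates 1 and 2 and a bar at the mean of 4. The 35 genes stay between 7324 and 9729 in all libraries and their triangles lie above their circles in every group, while the chaperones are high at 46 °C and the mitochondrial mRNAs low at 46 °C and high at 50 °C.

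With this division in the model, a few members passed the threshold between groups. At 46 °C over nanoparticles alone GNL3 was at 0.45 log2 units (edgeR, adjusted p = 0.015) and LYAR was at −0.39 (0.0444), 1 member each way beside 1.29% and 0.872% of all genes. At 50 °C over nanoparticles alone GNL3 was higher at 0.40 (0.0329), and NCL at −0.37 (0.00363), GAR1 at −0.65 (0.00723) and NOP16 at −0.53 (0.0194) were lower, beside 1.23% and 1.48% of all genes. At 50 °C over 46 °C CAD was higher at 0.80 (0.0178), and NCL at −0.42 (0.000468) and GAR1 at −0.59 (0.0198) were lower, beside 1.39% and 1.42%. At 54 °C over 50 °C NCL at 0.33 (0.039) and NOP16 at 0.54 (0.0451) were higher, beside 0.272%. All 5 groups compared at once gave NCL, GAR1, NOP16, GNL3 and CAD, beside 5.14% of all genes. No member was called at 54 °C over nanoparticles alone, at 54 °C over 46 °C, or with nanoparticles alone over untreated cells. Within replicates 1 and 2 alone, edgeR called GNL3 higher and DKC1 and LYAR lower at 46 °C over nanoparticles alone, beside 1.18% and 0.917% of genes. It called NCL, DKC1 and DDX21 lower at 50 °C over nanoparticles alone, beside 0.99%, NCL lower at 50 °C over 46 °C, beside 0.885%, and DDX21 higher at 54 °C over 50 °C, beside 0.113%. Within replicates 3 and 4 alone it called 0 members in each of the 7 comparisons, where between 0.00826% and 0.372% of genes were called in either direction.

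MYC mRNA reached at most 47.2 CPM in any library. Its mean was 19.3 ± 7.51 CPM in untreated cells, 22.1 ± 4.37 CPM with nanoparticles alone, 27.05 ± 16.95 CPM at 46 °C, 25.3 ± 8.68 CPM at 50 °C and 35.1 ± 3.90 CPM at 54 °C (SD, n = 4 each). At 46 °C the libraries spread from 11.5 to 47.2 CPM, replicates 1 and 2 low and replicates 3 and 4 high. The 54 °C libraries, 29.4 to 38.1 CPM, were all above those with nanoparticles alone, 15.97 to 26.1 CPM, at a log2 fold change of 0.67 ± 0.33 (SE, unadjusted p = 0.0451, adjusted p = 0.866). MAX, its partner, was at −0.09, −0.19 and −0.11 log2 units at 46, 50 and 54 °C over nanoparticles alone. Of 10 genes of the MYC and MAX network, 0 were called in any comparison. MNT, a MAX partner that represses, had the smallest p of the list at each temperature, with log2 fold changes of 1.31 ± 0.44, 1.30 ± 0.44 and 1.77 ± 0.44 and adjusted p-values of 0.173, 0.149 and 0.0994.

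The wider pathway gave few calls too, and these lists were likewise chosen with earlier results of the data known. Against nanoparticles alone at 46 °C, 1 of 46 tested small-subunit processome genes was called, UTP4, which fell by 0.68 ± 0.17 log2 units (SE, adjusted p = 0.0345), with 79 ± 12.1 against 126 ± 10.9 CPM (SD, n = 4 each). Leaving out any 1 of replicates 1, 3 and 4 at 46 °C, or of replicates 1, 2 and 4 with nanoparticles alone, ended the UTP4 call, with an adjusted p up to 0.147. Library totals as the scaling, and either pair of replicates alone, ended it too (up to 0.162). At 50 °C the call went to WDR74, a large-subunit factor, among 50 large-subunit genes, and to TAF1D, a subunit of the polymerase I initiation factor, among 13 genes of that machinery. WDR74 had 183, 195, 224 and 155 CPM at 50 °C, against 48.9, 73.3, 69.0 and 47.4 CPM with nanoparticles alone, a log2 fold change of 1.67 ± 0.21 (adjusted p = 7.18e-07). At 46 °C WDR74 had 73.4, 132, 81.1 and 95.7 CPM, and at 54 °C it had 48.7, 61.5, 51.8 and 47.4 CPM. It was called higher at 50 °C than at 46 °C (0.98, adjusted p = 0.00377) and lower at 54 °C than at 50 °C (−1.85, 4.69e-08), and lower at 54 °C than at 46 °C (−0.87, 0.0271). The call at 50 °C over 46 °C was lost within replicates 3 and 4 (0.128). That at 54 °C over 46 °C was lost there (0.549) and without any 1 of replicates 2 and 4 at 46 °C and 1, 3 and 4 at 54 °C (up to 0.257). WDR74 was not called at 46 °C over nanoparticles alone (0.68, 0.129). TAF1D had 516, 629, 847 and 799 CPM at 50 °C, against 222, 229, 349 and 295 CPM with nanoparticles alone, a log2 fold change of 1.35 ± 0.19 (adjusted p = 0.000137). At 54 °C it had 336, 339.9, 552 and 566 CPM, overlapping with nanoparticles alone, and the log2 fold change of 0.71 ± 0.19 was not called (adjusted p = 0.22). Between 50 and 46 °C, TAF1D (1.11, adjusted p = 0.0012) and TCOF1, the nucleolar protein treacle (0.65, 0.0279), were called higher at 50 °C. The TCOF1 call was lost without any 1 of 5 libraries, replicates 1, 2 and 3 at 46 °C and 1 and 4 at 50 °C, with an adjusted p up to 0.192. It was also lost with library totals, with only the groups compared in the fit and within replicates 3 and 4 (up to 0.657). TAF1D, WDR74 and UTP4 carry small RNA genes in their span. These are 8 small nucleolar RNAs in TAF1D, RNU2-2P, a copy of the U2 small nuclear RNA gene, in WDR74, and RF00019 in UTP4. Whether reads from these entered the counts was not tested.

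The 9 snoRNP assembly genes and the 17 other genes of nucleotide and polyamine synthesis had 0 calls in the 7 comparisons. Among 79 cytosolic ribosomal proteins, RPL22 was called higher at 46 °C (0.46 ± 0.10, adjusted p = 0.00743), and those called higher at 50 °C included RPL12 (0.50, 0.00283) and RPSA (0.40, 0.0237), over nanoparticles alone. At 54 °C 0 were called. RPL22 lost its call without 46 °C replicate 2 or nanoparticle-alone replicate 4, and RPL12 without nanoparticle-alone replicate 2, while RPSA lost its call without any 1 of 6 libraries, with an adjusted p up to 0.121. RPL12 and RPSA were not called within replicates 3 and 4, nor RPSA with library totals. The list medians over nanoparticles alone were within 0.17 log2 units of 0 for polymerase I machinery, processome, large-subunit, snoRNP, nucleotide and ribosomal protein genes at all 3 temperatures.

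The members can also be divided by the E-box and by the small nucleolar RNAs in their span, which was done as a description with no test. The 11 with the E-box had a median log2 fold change of −0.09 at 46 °C, −0.07 at 50 °C and −0.12 at 54 °C over nanoparticles alone, and the 18 other members with a promoter window had −0.07, −0.14 and −0.01. Between replicate pairs, 5 of the 11 and 9 of the 18 were called higher. In GENCODE v29, 10 members carry 29 small nucleolar RNAs in their span, 23 of them outside exons. These hosts are NCL, NOP56, NOP58, DKC1, POLR1C, WDR43, TSR1, GNL3, PPAN and ODC1. Their medians were 0.06 at 46 °C, −0.09 at 50 °C and −0.05 at 54 °C, beside −0.07, −0.12 and −0.03 in the 25 other members. Between replicate pairs 7 of the 10 hosts and 10 of the 25 others were called higher. The libraries are read from the 3′ end of poly(A) RNA and the strand setting of the counting is not given in the sources used here, and 13 members, GNL3, POLR1C and NOP16 among them, overlap a gene on the other strand.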

How the data were processed

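The authors deposited 1 table of estimated counts, by gene and library, for 20 samples. The submitters' processing notes name STAR, Salmon and the build GRCh38, without versions, annotation, strand setting or use of molecular identifiers. QuantSeq 3′ FWD libraries were made, per the labels' protocols, so reads copied by PCR are not independent and counting error is only a lower bound. Estimated counts were rounded (1.74% to 2.9% of values per library were not whole). Genes were filtered with filterByExpr (minimum count 10, total 15) and TMM-scaled, and 5 group means were fitted with edgeR 4.0.16 (robust quasi-likelihood, limma 3.58.1, R 4.3.3) over all 20 samples, with Benjamini-Hochberg adjustment over 12149 genes and a call at an adjusted p under 0.05. SE is the fold change over the root of F. CPM are TMM-normalised. DESeq2 1.42.0, other scalings, no filter, left-out libraries and replicate terms were alternatives. Promoter windows came from RefSeq, positions from GENCODE v29. No 2 libraries were identical (replicates correlated at 0.891 to 0.942).

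The 35 genes and all lists were chosen with earlier results of these data known. Values in all 20 libraries are given for the 10 members that were among the 4 with the smallest p at a temperature over nanoparticles alone. POLR1B and NOP2, given library by library in 2 groups each, were chosen after their values were seen. From each other list, the 2 genes with the smallest p in a comparison could be named, along with every called one except 1 gene that is not reported here, and MYC, MAX, HSPA1A and DNAJB1 were fixed. DNAJB1 averaged 1645 ± 355 CPM in 46 °C cells and 134 ± 9.77 CPM in nanoparticle-alone cells (SD, n = 4 each).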

Additional observations from a re-analysis of the deposited data

Results flagged for a closer look

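In 6 of 180 sets of 4 libraries (3.33%), taken over the members and their sum in each of 5 groups, 1 library stood apart from the other 3 by Dixon's test at the 95% level. Chance flags about 1 in 20 groups. NOP58 had 376 CPM in 50 °C replicate 4, against 235 to 241 CPM in the other 3, and 359.6 CPM in untreated replicate 4, against 261 to 276 CPM. GAR1 had 143 CPM in 54 °C replicate 4, against 81.2 to 87.0 CPM. CAD had 80.8 CPM in 50 °C replicate 4, against 52.9 to 57.6 CPM, and 39.6 CPM in 54 °C replicate 4, against 61.1 to 65.4 CPM. RRS1 had 15.8 CPM in 46 °C replicate 2, against 23.4 to 24.9 CPM.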

How the results depend on the processing

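Against 0 members called in each direction of each comparison, edgeR gave the following counts under the alternatives. With library totals as the scaling, 1 was higher at 46 °C (GNL3) and 1 lower at 50 °C (GAR1) over nanoparticles alone, and 5 were lower at 50 °C over 46 °C (NCL, NOP58, GAR1, NOP16 and DDX18). Among the 5 groups GAR1 was then called in place of CAD. That scaling moved the median of all genes to −0.10 at 50 °C over nanoparticles alone and −0.18 at 50 °C over 46 °C, and those of members to −0.23 and −0.22. With no low-count filter and, likewise, with only the groups compared in the fit, 2 were lower at 50 °C over nanoparticles alone (NCL and GAR1) and 1 at 50 °C over 46 °C (NCL), and without the filter 2 differed among the 5 groups (NCL and CAD) in place of 1. The replicate block and the term for replicate pairs each gave 1 higher (GNL3) and 1 lower (LYAR) at 46 °C. Each gave 1 higher (GNL3) and 3 lower (NCL, GAR1 and NOP16) at 50 °C, and 1 higher (CAD) and 2 lower (NCL and GAR1) at 50 °C over 46 °C. Both also gave 2 higher (NCL and NOP16) at 54 °C over 50 °C and 5 among the 5 groups. Over all genes the block called 1.33% higher and 0.889% lower at 46 °C, and 1.25% and 1.49% at 50 °C, each over nanoparticles alone. It called 1.43% higher and 1.47% lower at 50 °C over 46 °C. The block's share was 0.263% higher at 54 °C over 50 °C, and 5.18% among the 5 groups. Replicates 1 and 2 alone gave 1 higher and 2 lower at 46 °C, 3 lower at 50 °C, 1 lower at 50 °C over 46 °C, 1 higher at 54 °C over 50 °C and 4 among the 5 groups, and replicates 3 and 4 alone gave 0 among the 5 groups. DESeq2 gave 1 higher at 46 °C, 1 lower at 50 °C and 1 higher at 50 °C over 46 °C. Leaving out 1 library gave 0 in each comparison of 2 groups, 0 to 1 among the 5 groups and 13 to 17 higher and 0 lower between replicate pairs. Of 5001 values compared with their alternatives, 4910 stayed on their side of the threshold, 47 passed it, 44 lost it and 0 called values changed sign, while 371 uncalled ones did. These values include the difference between replicate pairs. As 0 members were called between 2 groups, only calls between replicate pairs could be lost or change sign. The 0 therefore says nothing about the comparisons of 2 groups.

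The cause of these differences was not tested, apart from the changes in samples or genes that an alternative makes itself. Library totals shifted the balance of higher and lower calls over all genes, from 64 higher and 84 lower to 50 and 227 at 50 °C over nanoparticles alone, from 71 and 74 to 46 and 374 at 50 °C over 46 °C, and from 7 and 17 to 22 and 16 at 54 °C over 50 °C. The replicate numbers did not pair the samples: deviations from the group means correlated at 0.0222 to 0.066 for the same number and at −0.0795 to 0.0724 for different ones, and 7 of 20 libraries were most like one of their own number. The block raised the calls over all genes at 46 °C from 75 higher and 42 lower to 161 and 108. The term for replicate pairs, the fits within pairs and the alternatives for named pathway genes were chosen after the data were seen. Low counts limit PPAN, RRS1 and RRP12, whose lowest libraries held 15, 50 and 35 counts.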
